A study of Mus musculus with 16 samples.

Results

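Metallothioneins and the genes that move and sense zinc were followed in mouse neutrophils after experimental sepsis. The group held 5 of the 49315 genes in the deposited tables: the metallothioneins Mt1 and Mt2, the zinc importer Slc39a14 (ZIP14), the zinc exporter Slc30a1 (ZnT1) and the zinc sensor Mtf1. They were chosen by the normalised read counts of Mt1 in blood, which were far higher 12 hours after cecal ligation and puncture (CLP) than at baseline. The blood 12h against 0h values of the members are therefore given as a description, without a test.

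Neutrophils were sorted as Ly6G+, CD11b+ and CD45.2+ cells from blood and lung of male mice aged 8 to 12 weeks. CLP, in which the cecum is tied off and punctured so that gut bacteria leak into the abdomen, was done in the 12h groups. By the study's methods it came with ketamine and xylazine anaesthesia, saline and the painkiller buprenorphine. The 0h mice were untreated and there was no sham surgery, so the infection, the operation and these drugs cannot be told apart. The 2 genotypes were wild type (WT) and αD KO, which by its label lacks the integrin subunit αD encoded by Itgad. With 2 tissues and 2 times (0h, naive mice with no treatment, and 12h after CLP) this gave 8 groups of 2 samples, where the first sample of each group had 2 count files. The 3 files of a group are called libraries 1a, 1b and 2, with 1a and 1b from the same sample. No source used here says whether the libraries came from separate mice, so p-values measure the spread between libraries, which may be technical. Each SD over n = 3 libraries likewise covers 2 samples.

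Metallothioneins are small cysteine-rich proteins that bind zinc and copper and buffer the free metal in the cytosol. The factor MTF1 binds metal response elements in front of its target genes when cytosolic zinc rises, and Mt1, Mt2 and Slc30a1 are textbook targets of it. Glucocorticoids and cytokines acting through STAT3 also raise metallothionein transcription during acute inflammation, when Slc39a14 carries zinc from plasma into the liver.

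Mt1 (ENSMUSG00000031765) lies on the plus strand of chromosome 8, at chr8:94179082-94180327 of GRCm38, and Mt2 (ENSMUSG00000031762) lies on the same strand at chr8:94172664-94173568. Both were searched for the core of the metal response element, written TGCACNC (core 1) or TGCGCNC (core 2), on both strands, since these are the letters that the zinc sensor MTF1 reads. Each held 5 matches in the 300 bases before its start codon, chr8:94179011-94179310 for Mt1 and chr8:94172548-94172847 for Mt2. These windows are set by the start codon and reach past the transcription start, so they are not compared with other promoters. The matches are shown with 5 bases on each side, on the plus strand, with the matching 7 bases in capitals.
Mt1 match 1, chr8:94179061-94179077: cgctgTGCACACtggcg
Mt1 match 2, chr8:94179086-94179102: agctcTGCACTCcgccc
Mt1 match 3, chr8:94179104-94179120: aaaagTGCGCTCggctc
Mt1 match 4, chr8:94179168-94179184: ctgctGGGTGCAaaccc
Mt1 match 5, chr8:94179182-94179198: cccttTGCGCCCggact
Mt2 match 1, chr8:94172563-94172579: agggcGTGTGCAggctc
Mt2 match 2, chr8:94172617-94172633: gggtcGTGCGCAggccc
Mt2 match 3, chr8:94172671-94172687: agggcGTGTGCAggcgg
Mt2 match 4, chr8:94172690-94172706: ggggcGCGTGCAtggtg
Mt2 match 5, chr8:94172724-94172740: gctttTGCGCTCgaccc
In Mt1, 4 of the 5 matches ran on the gene's own strand, and in Mt2 only 1 of 5 did. The match nearest to the start codon was a core 2 match on the gene's strand in both genes, ending 118 bases before the codon in Mt1 and 113 bases before it in Mt2. In the 250 bases before the RefSeq transcription start, a window that can be set beside other promoters, Mt1 held 1 match, Mt2 held 3, Slc30a1 held 1 and Mtf1 held 0. Of 32851 such RefSeq windows, 21.4% held at least 1 match and 1.26% held 3 or more. The table of promoters has no entry for Slc39a14. A match is a run of letters and not evidence that MTF1 binds there.

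**Figure D1:**
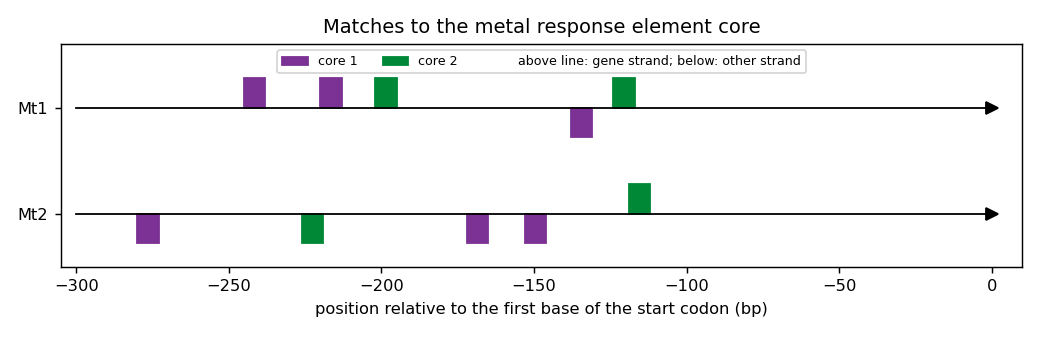
Position of each match to the metal response element core in the 300 bases before the start codon of Mt1 and Mt2, in bp (core 1 is TGCACNC in purple, core 2 is TGCGCNC in green; boxes above the line are on the gene's strand and boxes below it on the other). All 5 Mt1 matches lie between 245 and 118 bases before the codon, and the 5 Mt2 matches between 280 and 113.

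Levels are given as CPM, read counts divided by the scaled size of each of the 24 libraries, whose totals ran from 5753476 to 29984954 counts. The genotype and time labels were checked first. Itgad, the targeted gene, was at 0.058 to 3.66 CPM in WT and reached 12.5 to 101.9 CPM in every library whose label reads αD KO, so its order ran against the label. Counts per gene do not show whether these reads lie outside the disrupted part of the gene. The genotype is therefore written as labelled throughout. In lung, 3 libraries stood apart from their time labels. On a scale over 1330 genes where the mean of the WT lung libraries is close to 0 at 0h and close to 1 at 12h, the library labelled αD KO lung 0h, number 2, lay at 1.03. The libraries labelled αD KO lung 12h, numbers 1a and 2, lay at 0.101 and 0.188. The members' fold changes in lung labelled αD KO are given with and without them.

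The sort was checked by marker genes. All 8 neutrophil markers, such as S100a8 and Ly6g, were detected in every group and summed to between 29200 and 212300 CPM. The 13 monocyte and macrophage markers were detected in every group too, at a summed 545 to 2765 CPM. Other markers were present as well: 6 erythroid markers summed to 27.6 to 9091 CPM, 6 B cell markers to 34.7 to 1493 CPM, 16 lung structural markers to 12.1 to 1428 CPM, 9 T and NK cell markers to 7.13 to 384 CPM and 6 platelet markers to 3.50 to 753 CPM. RNA was pooled over sorted cells, so fewer cells of a type and less RNA per cell cannot be told apart in any of these values.

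Mt1 ranged over the 24 libraries from 0.422 to 1081 CPM, or 6 to 15338 counts in a library. In WT blood at 0h it was at 1.38 (library 1a), 1.44 (1b) and 5.94 CPM (2), and at 12h it was at 38.3, 69.3 and 51.8 CPM. All 3 blood libraries at 12h lay above all 3 at 0h. In the libraries labelled αD KO, blood Mt1 was at 1.22, 0.422 and 3.93 CPM at 0h and at 723, 20.4 and 365 CPM at 12h. The 2 times did not overlap here either, although library 1b at 12h lay far below the other two. Over all genes tested, 34.7% had no overlap in either direction in WT blood and 32.2% in blood labelled αD KO. The estimated log2 fold change of Mt1 was 4.06 in WT blood (SE 0.63) and 7.37 in blood labelled αD KO (SE 1.32). With single libraries left out the WT value ran from 3.60 to 5.16. It was highest without library 2 of WT blood 0h, which held the highest Mt1 level of its group. The value in blood labelled αD KO was 6.50 without 12h library 1a and 8.56 without 0h library 2, the lowest and highest with single libraries left out. These are the values that chose the gene. Over all genes, 13.5% of those tested were called in WT blood and 8.75% in blood labelled αD KO, where a call is an adjusted p under 0.05 with an absolute log2 fold change over 1.

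Cell-state markers moved in the same blood libraries. The 11 immature neutrophil markers summed to 73.6 to 6897 CPM in WT blood at 0h and 65880 to 164800 CPM at 12h, and to 170 to 18630 CPM and 23330 to 110600 CPM in blood labelled αD KO. The 6 B cell markers summed to 264 to 1214 CPM and then 40.4 to 266 CPM in WT, and to 324 to 1493 CPM and then 37.5 to 141 CPM in the other genotype. The 6 platelet markers summed to 41.8 to 140 CPM and then 5.78 to 31.7 CPM in WT, without overlap, and to 26.9 to 753 CPM and then 4.83 to 46.7 CPM in the other genotype. The 9 T and NK cell markers summed to 16.9 to 32.1 CPM and then 14.2 to 16.2 CPM in WT, and to 12.7 to 384 CPM and then 9.49 to 19.1 CPM in the other genotype. The 8 neutrophil markers had higher sums at 12h as well, with 29200 to 49660 CPM at 0h and 116300 to 212300 CPM at 12h in WT, and 35300 to 60840 CPM and 122800 to 153200 CPM in blood labelled αD KO. The 16 lung structural markers summed to 26.1 to 332 CPM at 0h and 20.25 to 22.4 CPM at 12h in WT, without overlap. In blood labelled αD KO they summed to 29.3 to 37.6 CPM and 12.1 to 30.15 CPM. The part of all these markers' cells in the metallothionein levels was not tested.

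Mt2 was at or near 0 counts in blood at baseline. In WT blood at 0h it had 0 counts in libraries 1a and 1b and 0.168 CPM in library 2, against 1.69, 0.753 and 1.25 CPM at 12h. Blood labelled αD KO had 0 counts in libraries 1a and 1b and 0.111 CPM in library 2 at 0h, and 21.0, 0.448 and 5.43 CPM at 12h. Here too the libraries at 12h lay above those at 0h in both genotypes, beside the shares of all genes given with Mt1. The Mt2 level at 0h rests on only 4 counts in WT and 3 in the other genotype. From the summed counts the ratio of 12h to 0h was 18.8 in WT (95% interval 6.99 to 71.2, from 62 against 4 counts) and 207 in the libraries labelled αD KO (70.4 to 1010, from 375 against 3 counts). These intervals cover counting error only. Mt2 did not pass the filter on low counts in blood labelled αD KO, so it has no fitted value there.

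**Figure D2:**
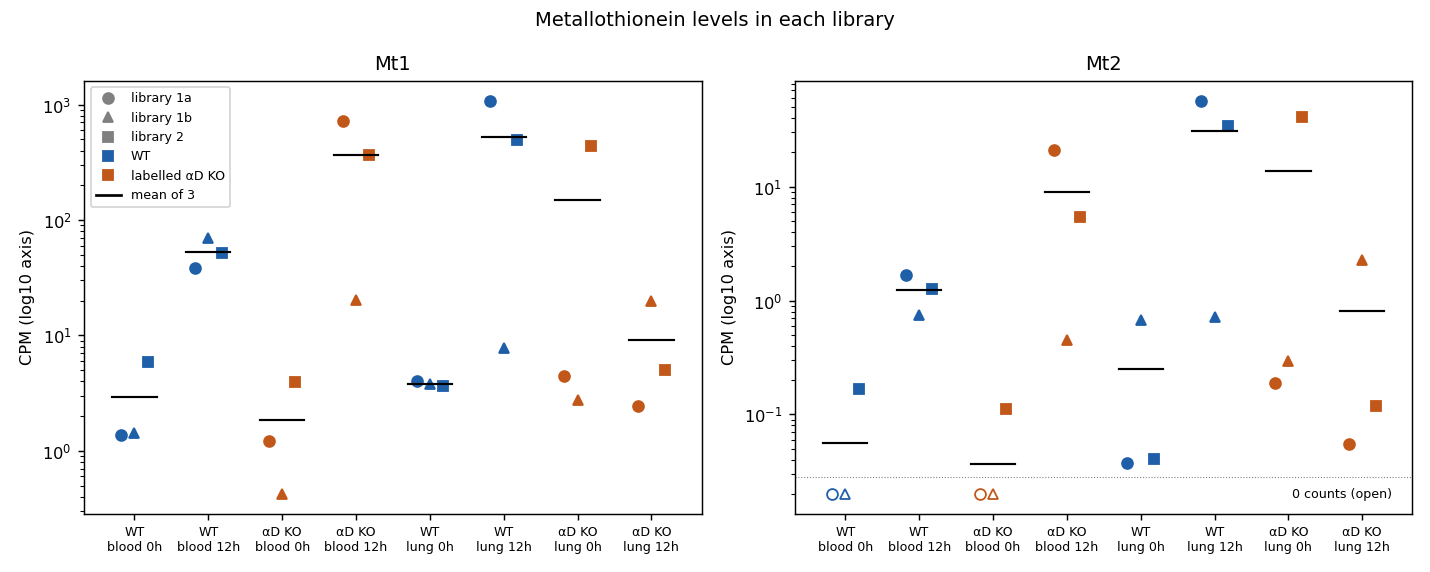
Mt1 and Mt2 in each library, in CPM on a log10 axis, by group (blue WT, orange labelled αD KO; circles library 1a, triangles 1b, squares 2; bars the mean of the 3 libraries; open symbols 0 counts). Mt1 is above 300 CPM in 5 libraries, of which 2 are WT lung 12h, 2 are labelled αD KO blood 12h and 1 is labelled αD KO lung 0h.

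The remaining members varied less in blood. Slc39a14 (ENSMUSG00000022094, chr14:70303469-70351425, minus strand), which imports zinc, was at 3.34, 1.80 and 3.20 CPM in WT blood at 0h and at 2.68, 2.31 and 1.53 CPM at 12h, and these groups overlapped. In blood labelled αD KO it was at 3.07, 4.36 and 2.74 CPM at 0h and at 2.64, 0.895 and 2.64 CPM at 12h. There the 12h libraries all lay below the 0h libraries. Such separation was common in that contrast, at 32.2% of all genes tested, and in WT blood at 34.7%. Slc30a1 (ENSMUSG00000037434, chr1:191906767-191913247, plus strand), which exports zinc, was at 2.07, 1.17 and 1.47 CPM in WT blood at 0h and 0.292, 1.81 and 0.557 CPM at 12h, and in blood labelled αD KO at 2.48, 1.69 and 1.19 CPM and 1.57, 5.19 and 1.22 CPM. Neither pair of groups separated. Mtf1 (ENSMUSG00000028890, chr4:124802104-124849800, plus strand), the factor that senses zinc, was at 17.4, 13.1 and 29.3 CPM in WT blood at 0h and 34.8, 23.7 and 39.2 CPM at 12h. In blood labelled αD KO it was at 26.7, 19.1 and 18.9 CPM and then at 34.5, 28.4 and 36.7 CPM. The Mtf1 groups overlapped in WT and did not in the other genotype. The spans of Slc30a1 and Mtf1 overlap those of 1700034H15Rik and 1110065P20Rik on the opposite strand (73 and 2587 counts in all). Their exons were not compared, and reads from any shared stretch cannot be told apart without the strand of counting.

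Lung neutrophils gave the comparison of CLP that did not enter the choice of genes. Mt1 was at 4.02, 3.76 and 3.64 CPM in the WT lung libraries 1a, 1b and 2 at 0h, and at 1081, 7.85 and 498 CPM at 12h. Mt2 was at 0.0375, 0.670 and 0.0405 CPM at 0h and at 56.8, 0.720 and 34.1 CPM at 12h. For both genes the 12h libraries lay above the 0h libraries. Over all genes tested, 28.5% had no overlap in one direction or the other. Library 1b at 12h was close to the 0h level while the other two were far above it. Mt1 rose by the edgeR quasi-likelihood test with Benjamini-Hochberg adjustment, with a log2 fold change of 6.89 (SE 1.38, adjusted p = 0.0245). In the same test 1340 of 14859 genes were called, 9.02% of those tested, and 5.24% were called as higher. Mt2 had 1, 13 and 1 counts at 0h against 806, 9 and 587 at 12h, so it passed the filter on low counts only through the 12h group. Its estimate of 6.76 (SE 1.54) is therefore given without a test, as are its other lung values.

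The call of Mt1 in WT lung depended on single libraries. The adjusted p from edgeR was 0.281 without 0h library 1a, 0.0732 without 0h library 1b, 0.254 without 0h library 2, 0.168 without 12h library 1a and 0.150 without 12h library 2. Only without 12h library 1b, the low one, was the call kept in this series of fits. The estimate for Mt1 ran from 5.81 to 7.34 and that for Mt2 from 5.89 to 9.21 over all 6 omissions, so the direction held. The number of genes called over the whole table moved with them, from 0 without 0h library 1a, 0h library 2 or 12h library 1a and 27 without 12h library 2 to 769 without 0h library 1b and 3941 without 12h library 1b. With the library number as a block the adjusted p for Mt1 was 0.0714, and with all 8 groups in the fit it was 0.0537. With the files of sample 1 summed, which leaves 2 samples in each group, Mt1 was called by edgeR (6.95, adjusted p = 0.00628). It was called without the 1b libraries too (adjusted p = 4.57e-05), and by DESeq2 (1.32e-10).

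Of the other members in WT lung, the importer Slc39a14 was at 2.07, 3.66 and 2.83 CPM at 0h and at 9.80, 2.08 and 10.1 CPM at 12h. Libraries 1a and 2 at 12h were above every 0h library, and 1b was at the 0h level. The log2 fold change of 1.19 (SE 0.56) was not called (edgeR adjusted p = 0.215), and it was 1.43 with adjusted p = 0.0434 without 12h library 1b and 1.77 with adjusted p = 0.00708 without the 1b libraries of both groups. Summing the files of sample 1 gave 1.33 (adjusted p = 0.0746 by edgeR), and without 12h library 2 the value was 0.74 (adjusted p = 0.962), so neither was called. The exporter Slc30a1 was at 1.80, 1.91 and 2.88 CPM at 0h and at 2.75, 4.64 and 5.11 CPM at 12h. Its groups overlapped only between the highest 0h and the lowest 12h library. The log2 fold change of 0.94 (SE 0.54) was not called, with adjusted p = 0.308 and an interval of 2 SE on each side from -0.13 to 2.01. Mtf1 was at 23.95, 15.5 and 30.0 CPM at 0h and at 25.6, 21.9 and 24.3 CPM at 12h. Its log2 difference of 0.03 (SE 0.32) had an interval from -0.61 to 0.67, which leaves room for a change of less than 2-fold in either direction.

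Markers of cell state moved in the same lung libraries. The 11 immature neutrophil markers, granule and cell cycle genes such as Elane, Ltf and Mki67, summed to 169 to 1408 CPM in WT lung at 0h and to 18450 to 56880 CPM at 12h, with library 1b the lowest at each time. All 11 were detected in each of the 8 groups. The 13 monocyte and macrophage markers summed to 729 to 1255 CPM at 0h and 611 to 901 CPM at 12h, and the 16 lung structural markers to 71.5 to 260 CPM and 130 to 400 CPM. The 6 B cell markers summed to 429 to 785 CPM at 0h and 34.7 to 109 CPM at 12h, and the 8 neutrophil markers to 37670 to 53390 CPM and 78710 to 143400 CPM. The part of these cells in the metallothionein values was not tested.

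In the lung libraries labelled αD KO the pattern went against the time labels. Mt1 was at 4.44, 2.75 and 442 CPM at 0h and at 2.43, 20.1 and 4.98 CPM at 12h. Mt2 was at 0.189, 0.297 and 40.5 CPM at 0h and at 0.0552, 2.27 and 0.119 CPM at 12h. The single high library at 0h and the 2 low libraries at 12h were the 3 that stood apart on the scale of WT lung genes. With all 6 libraries the log2 fold change of Mt1 was -3.70 (SE 1.87), which was not called (edgeR adjusted p = 1.00). It was -1.10 (SE 2.14, adjusted p = 1.00) with the library number as a block, and with no filter on low counts it was called, at -4.02 (adjusted p = 1.24e-05). Without those 3 libraries it was 2.54, from libraries 1a and 1b at 0h, which are files of the same sample, against library 1b alone at 12h. Since the 3 were left out for their position on genes that differed after CLP, the sign of this value was fixed by the choice, and no test is given for it. Mt2 did not pass the filter on low counts in this comparison. No gene at all was called with the 6 libraries (0 of 17939 or 0.0% by edgeR, 72 with an unadjusted p under 0.05 and 0 by DESeq2). The summed immature neutrophil markers ran from 201 to 58740 CPM at 0h, highest in library 2, and from 7278 to 13540 CPM at 12h, highest in library 1b.

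The transporters and Mtf1 did not separate by time in these libraries. Slc39a14 was at 3.03, 2.75 and 4.96 CPM at 0h and at 3.53, 2.27 and 5.26 CPM at 12h. Its log2 difference was 0.07, with an interval from -0.95 to 1.10. Slc30a1 was at 1.09, 2.30 and 2.55 CPM at 0h and at 2.98, 1.86 and 2.33 CPM at 12h, and its log2 difference of 0.31 had an interval from -0.95 to 1.57. Mtf1 was at 17.8, 17.4 and 22.4 CPM and then at 22.3, 18.5 and 25.8 CPM. The log2 difference was 0.26, with an interval from -0.32 to 0.85, and none of the 3 was called. Without the 3 libraries that stood apart the log2 differences were -0.27 for Slc39a14, 0.24 for Slc30a1 and 0.16 for Mtf1.

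**Figure D3:**
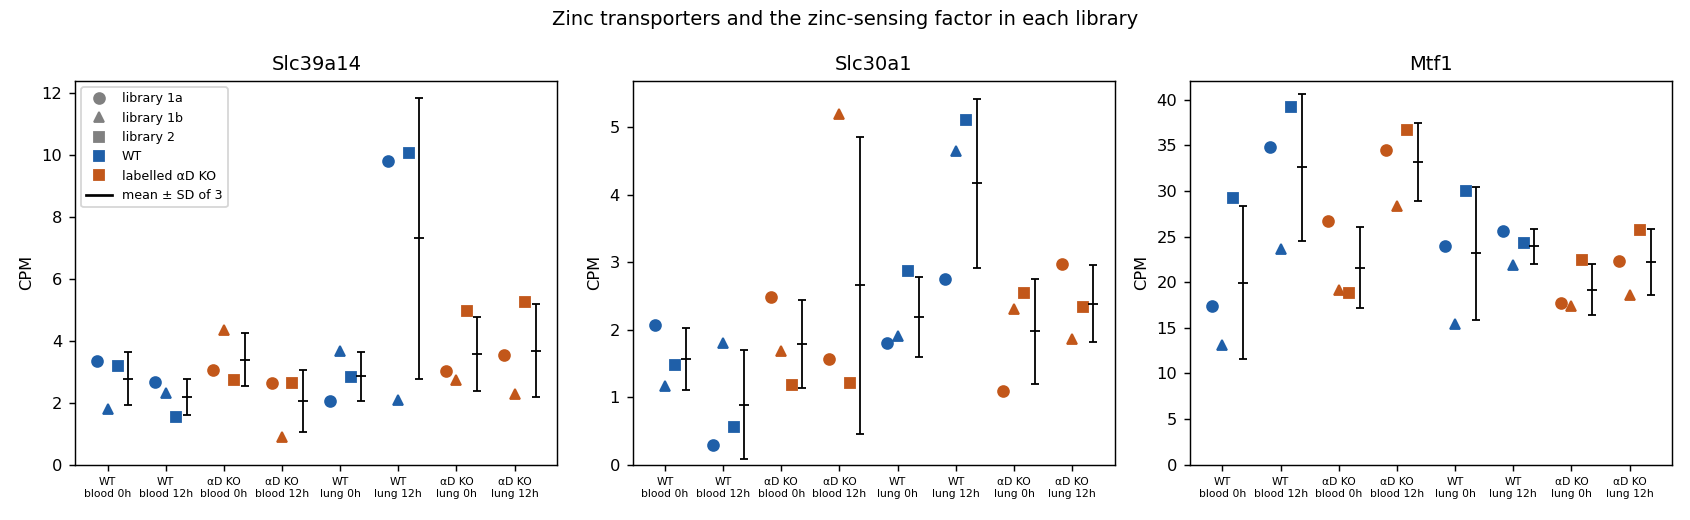
Slc39a14, Slc30a1 and Mtf1 in each library, in CPM on linear axes that start at 0, by group (blue WT, orange labelled αD KO; circles library 1a, triangles 1b, squares 2; bars mean ± SD of the 3 libraries). Libraries 1a and 2 of WT lung 12h hold the highest Slc39a14 levels, at 9.80 and 10.1 CPM, while library 1b of that group is at 2.08 CPM.

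The genotypes were compared next within tissue and time. At 0h in blood, Mt1 averaged 2.92 ± 2.61 CPM in WT and 1.86 ± 1.84 CPM in the group labelled αD KO (SD, n = 3 libraries each). The log2 difference was -0.69, with an interval from -2.70 to 1.32, and the groups overlapped. This difference is given without a test, since the same libraries chose the gene. In that comparison 0.0115% of 17356 genes were called, 2 genes, of which Itgad was 1. At 0h in lung, Mt1 averaged 3.81 ± 0.19 CPM in WT against 150 ± 253 CPM in the group labelled αD KO (SD, n = 3 libraries each). The log2 difference of 5.10 (SE 1.84) was not called (edgeR adjusted p = 0.983; 0.0% of 18232 genes called, 340 with an unadjusted p under 0.05, 6 by DESeq2). It was 1.59 (adjusted p = 0.769 by edgeR) with the library number as a block, and -0.024 without library 2 of the group labelled αD KO. In these lung libraries the 6 erythroid markers summed to 89.5 to 959 CPM in WT and 1896 to 3529 CPM in the group labelled αD KO. The 11 immature neutrophil markers summed to 169 to 1408 CPM and 201 to 58740 CPM. Their part in the difference was not tested.

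At 12h the estimated differences between genotypes had opposite signs in blood and lung. Blood Mt1 averaged 53.1 ± 15.5 CPM in WT and 369 ± 351 CPM in the group labelled αD KO (SD, n = 3 libraries each). Blood Mt2 averaged 1.23 ± 0.470 CPM and 8.95 ± 10.7 CPM. The groups overlapped for both genes, because library 1b labelled αD KO lay below all 3 WT libraries. The log2 differences were 2.64 for Mt1 (SE 0.95) and 2.80 for Mt2 (SE 1.01), again without a test. With single libraries left out they ran from 1.73 to 3.18 for Mt1 and from 1.23 to 3.32 for Mt2, lowest without library 1a labelled αD KO and highest without its library 1b. In the whole table edgeR called 0.0% of 12596 genes, with an unadjusted p under 0.05 for 505, and 16 were called by DESeq2.

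In lung at 12h the mean of both metallothioneins was higher in WT. Mt1 averaged 529 ± 538 CPM in WT and 9.16 ± 9.53 CPM in the group labelled αD KO, and Mt2 averaged 30.6 ± 28.2 CPM and 0.813 ± 1.26 CPM (SD, n = 3 libraries each). The SD was close to or above the mean in each group, and the groups overlapped. The summed immature neutrophil markers were at 18450 to 56880 CPM in these WT libraries and 7278 to 13540 CPM in those labelled αD KO, and the 6 B cell markers at 34.7 to 109 CPM and 58.5 to 524 CPM. Their part in the difference was not tested. The log2 difference of -5.45 for Mt1 (SE 1.58) was not called by edgeR (adjusted p = 0.598), and the estimate for Mt2 was -4.86 (SE 1.67). DESeq2 called Mt1, at -5.49 with adjusted p = 0.00148. It was also called by edgeR without the 1b libraries, without WT lung 12h library 1b alone (-6.07, adjusted p = 0.0420) and with no filter on low counts (-5.85, adjusted p = 0.00116). Without the 1b libraries the group labelled αD KO kept only libraries 1a and 2, which went against their time labels. The other calls include these 2 libraries as well. With the files of sample 1 summed Mt1 was not called by edgeR (-5.96, adjusted p = 0.0757). Without library 1b labelled αD KO, the highest of its group, the values were -7.03 for Mt1, which was not called (adjusted p = 0.177 by edgeR), and -8.16 for Mt2. With the 3 libraries that went against their time labels left out they were -4.30 and -3.34. That library 1b is then the only one of its group and was kept for its position on CLP genes, so no test is given. In the whole table edgeR called 0.0% of 16764 genes, with an unadjusted p under 0.05 for 1390, and 192 were called by DESeq2.

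Whether the change after CLP differed between genotypes was tested as an interaction. In lung the difference of log2 fold changes, labelled αD KO minus WT, was -10.68 for Mt1 (SE 2.70) and -10.61 for Mt2 (SE 3.06). Mt1 was not called by edgeR (adjusted p = 0.410, 0 of 23211 genes called or 0.0%, 2432 with an unadjusted p under 0.05). By DESeq2 350 genes were called, among them Mt1 (-10.59, adjusted p = 0.00630). Mt1 was also called by edgeR without the 1b libraries, at -13.27 (adjusted p = 0.0270), where the estimate for Mt2 was -17.38. In lung labelled αD KO this fit keeps the 3 libraries that stood apart and, beside them, only library 1a at 0h. Without library 2 of lung labelled αD KO at 0h the values were -5.56 for Mt1, which was not called (adjusted p = 1.00 by edgeR), and -5.07 for Mt2. Without all 3 libraries that stood apart they were -4.24 and -3.32, with a single library left in lung labelled αD KO at 12h, so these have no test either. With the files of sample 1 summed the value of Mt1 was -11.86, and it was not called (adjusted p = 0.223 by edgeR). In blood the difference of log2 fold changes was 3.50 for Mt1 (SE 1.44). It is built from the contrasts that chose the gene, so it is given without a test. Over all genes edgeR called 0.0% of 19792 in blood, with an unadjusted p under 0.05 for 232, and 1 was called by DESeq2.

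None of the transporters or Mtf1 was called in the 4 genotype comparisons or the lung interaction. Their log2 differences ran from -1.09 to 0.33 for Slc39a14, from -0.67 to 1.51 for Slc30a1 and from -0.27 to 0.31 for Mtf1. The lowest adjusted p by edgeR was 0.750, 0.755 and 0.977. Mtf1 thus had the narrowest span of the 3.

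**Figure D4:**
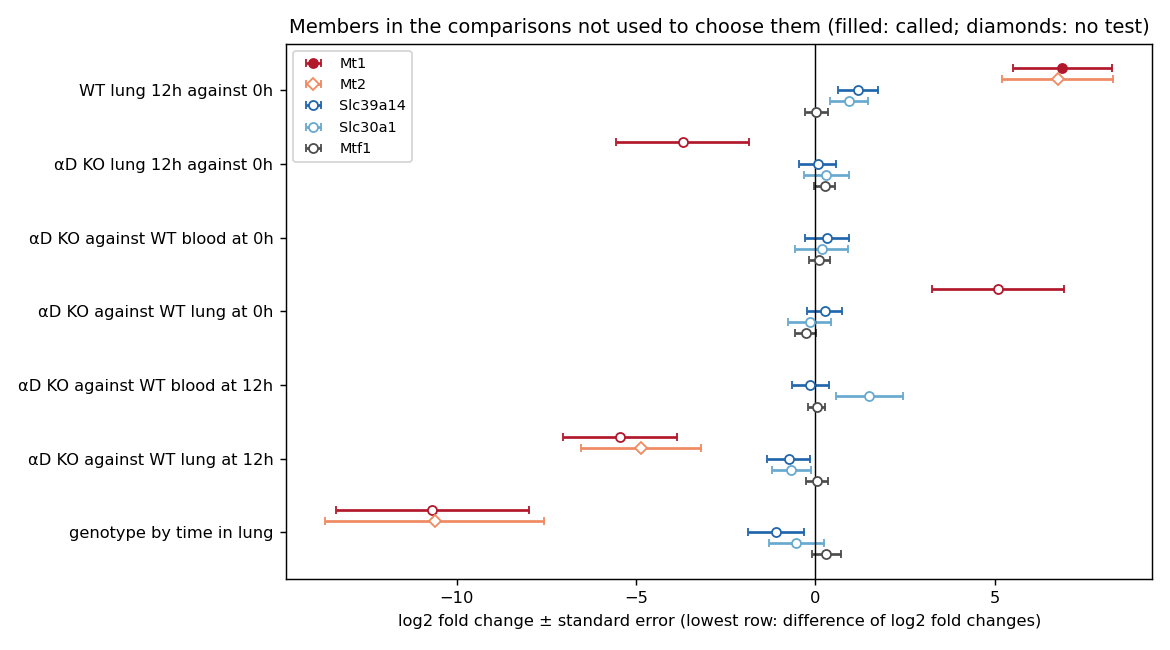
Log2 fold change ± SE of each member in the 7 comparisons that were not used to choose the genes (filled circles called by edgeR, open circles not called, diamonds Mt2, which is given without a test; the lowest row is the difference of log2 fold changes, labelled αD KO minus WT). Mt1 in WT lung, at 6.89, is the only filled symbol, and blood values of Mt1 and Mt2 are not drawn.

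Over the 8 groups, Mt1 was highest on average in WT lung at 12h (529 CPM), followed by blood labelled αD KO at 12h (369 CPM), lung labelled αD KO at 0h (150 CPM, with a median of 4.44 CPM) and WT blood at 12h (53.1 CPM). Below these came lung labelled αD KO at 12h (9.16 CPM), WT lung at 0h (3.81 CPM), WT blood at 0h (2.92 CPM) and blood labelled αD KO at 0h (1.86 CPM). Lung labelled αD KO at 0h owed its place to library 2, which went against its time label. Without it the mean was 3.59 CPM for Mt1 and 0.243 CPM for Mt2, rank 6 of the 8 groups for each. The only neighbours in this order whose libraries did not overlap were WT blood at 12h and lung labelled αD KO at 12h. Mt2 had a similar order, with WT lung at 12h highest (30.6 CPM), then lung labelled αD KO at 0h (13.7 CPM, with a median of 0.297 CPM) and blood labelled αD KO at 12h (8.95 CPM), and every pair of neighbours overlapped. For Slc39a14, Slc30a1 and Mtf1 every pair of neighbours overlapped as well. WT lung at 12h held the highest mean of Slc39a14 (7.31 ± 4.53 CPM) and of Slc30a1 (4.17 ± 1.25 CPM), and blood labelled αD KO at 12h that of Mtf1 (33.2 ± 4.30 CPM; SD, n = 3 libraries each).

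Lung and blood were set side by side within genotype and time, as a description without a test. At 12h the WT lung mean was 9.96 times the WT blood mean for Mt1, 24.8 times for Mt2, 3.36 times for Slc39a14, 4.71 times for Slc30a1 and 0.734 times for Mtf1. Of these only Slc30a1 had no overlap between tissues, as did 13.6% of 27145 genes. The metallothionein groups overlapped because of WT lung library 1b. In the libraries labelled αD KO the lung mean at 12h was 0.0248 times the blood mean for Mt1, 0.0909 times for Mt2, 1.79 times for Slc39a14, 0.898 times for Slc30a1 and 0.670 times for Mtf1. Mt1 and Mtf1 did not overlap there, as did not 23.7% of genes, and 2 of the 3 lung libraries are those that went against their time label. At 0h the WT lung mean was 1.30 times the blood mean for Mt1, 4.44 times for Mt2, 1.03 times for Slc39a14, 1.40 times for Slc30a1 and 1.16 times for Mtf1, and all 5 members overlapped between the tissues. In the libraries labelled αD KO at 0h it was 1.05 times the blood mean for Slc39a14, 1.11 times for Slc30a1 and 0.889 times for Mtf1, with overlap for each. For Mt1 it was 80.7 times (149.8 against 1.86 CPM, with overlap), a value that rests on lung library 2, since the mean of the other two was 3.59 CPM. Mt2 averaged 13.7 CPM in that lung group and 0.243 CPM without library 2, against 0.0371 CPM in blood, which rests on 3 counts, so no ratio is given for it.

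Mt1 and Mt2 moved together from library to library. Over the 24 libraries Pearson's r of their log2 CPM was 0.952, which is a description, since libraries of a group share their condition. Mt1 had more counts than Mt2 in all 24 libraries. In the 10 libraries with at least 10 Mt2 counts, Mt1 counts were 5.62 to 92 times those of Mt2, with a median of 20.8. Per kilobase of exon (1246 bp for Mt1, 588 bp for Mt2) the ratio was 2.65 to 43.4, with a median of 9.83. The annotated exons of Mt1 together fill its whole span, while those of Mt2 do not. Values of Mt1 per kilobase therefore depend on which transcripts are annotated. The span of Mt2 overlaps that of Gm45774 on the opposite strand, which had 273 counts over all libraries. Whether their exons share positions was not checked. The strand of counting is not given in the sources used here, so reads from any shared stretch cannot be told apart. The brain metallothionein Mt3 and the epithelial Mt4 had 8 and 14 counts in all 24 libraries together, which is at or near 0.

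**Figure D5:**
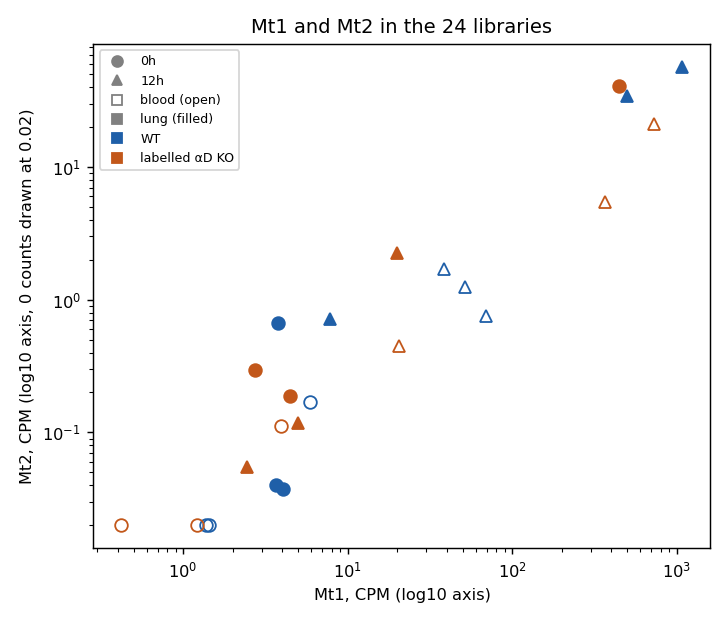
Mt2 against Mt1 in the 24 libraries, in CPM on log10 axes (circles 0h, triangles 12h; open blood, filled lung; blue WT, orange labelled αD KO; 0 counts of Mt2 drawn at 0.02). The 5 libraries above 300 CPM of Mt1 also hold the 5 highest Mt2 levels, from 5.43 to 56.8 CPM.

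Beyond Mt2, the genes whose log2 CPM was most like that of Mt1 over the 24 libraries were Stoml1 (r = 0.965), Wdr26 (0.961), Il12a (0.959) and Exoc5 (0.952), out of 27144 genes ranked. Il12a, a subunit of interleukin-12, ranged from 0.252 to 83.5 CPM and was also first for Mt2 (r = 0.953), followed by Mllt6 (0.952), Mt1, Traf1 (0.945) and Cxcl3 (0.939). Cxcl3, a neutrophil-attracting chemokine, ranged from 1.62 to 2747 CPM. Slc39a14 was most like Gm15708 (r = 0.867), Gm5050, Atg2a, Klf16 and Rufy3. Slc30a1 was most like Sap30l (r = 0.794), Cdc34, Cdk13, Cebpb and Arf6, and Mtf1 was most like Tirap (r = 0.903), Pxk, Rnf14, Snx13 and Tbc1d20. Among the members themselves, r with Mt1 was 0.53 for Mtf1, 0.29 for Slc39a14 and 0.02 for Slc30a1. These values share depth, library type and condition, and no p is given for them.

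Compared per kilobase of exon, Slc39a14 and Slc30a1 were at lower levels than several other zinc transporters. Averaged over the 24 libraries, Mt1 was at 112 CPM per kb, Mt2 at 11.8, Mtf1 at 2.75, Slc30a1 at 0.420 and Slc39a14 at 0.330. By group, Mt2 was above Mtf1 only in WT lung at 12h, lung labelled αD KO at 0h and blood labelled αD KO at 12h. Mt1 was below Mtf1 only in blood labelled αD KO at 0h (1.49 against 2.42 CPM per kb). Of the 13 other importers of the ZIP family, Slc39a4 (16.1 CPM per kb), Slc39a11 (9.14) and Slc39a7 (5.27) were highest. Of the 9 other exporters of the ZnT family, Slc30a6 (8.36), Slc30a5 (5.20) and Slc30a7 (3.09) were highest. The order differed between groups: in blood at 12h Slc39a11 was the highest importer (14.9 CPM per kb in WT and 13.3 in the libraries labelled αD KO), with Slc39a3 next (6.27 and 5.90). Among the exporters Slc30a5 was highest in WT blood at 0h (4.79), in blood labelled αD KO at 0h (6.04) and in WT lung at 0h (5.44), and Slc30a6 was highest in the other groups. Slc30a9 took the place of Slc30a7 in 4 of the 8 groups. Slc39a4 is known as the intestinal zinc importer, Slc39a7 as a channel that releases zinc from the endoplasmic reticulum, and Slc30a5, Slc30a6 and Slc30a7 as transporters that load zinc into the secretory pathway.

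The other zinc genes were counted from a list. It held 28 genes outside the members, made of Mt3, Mt4, the 13 importers, the 9 exporters and the MTF1-responsive genes Gclc, Slc39a10, Csrp1, Ndrg1 and Selenoh, with Slc39a10 in both. In WT lung 19 of the 28 passed the filter and none was called, beside 9.02% over all genes, with a median log2 fold change of 0.14 against 0.03 over all genes. None was called in the lung labelled αD KO, in any genotype comparison or in either interaction, where 18 to 23 genes passed the filter. The 5 MTF1-responsive genes had a median of 0.32 in WT lung, from 0.04 for Csrp1 to 1.45 for Gclc, all of them positive. In blood their medians were -1.12 in WT, with 2 of 5 positive, and -1.01 in the libraries labelled αD KO, with 0 of 5 positive. The list was not split into genes that MTF1 raises and genes that it lowers. These medians and signs are therefore no measure of its activity.

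In blood 3 zinc genes of the list were called in WT at 12h against 0h. Slc39a3, a plasma membrane zinc importer, rose from 8.09 ± 2.04 to 25.2 ± 4.32 CPM (SD, n = 3 libraries each; edgeR log2 fold change 1.45, SE 0.27, adjusted p = 0.0155). Slc39a4 fell from 65.1 ± 38.5 to 9.52 ± 8.76 CPM (log2 fold change -3.00, SE 0.70, adjusted p = 0.0305 by edgeR). Ndrg1, a gene induced by low oxygen and metals, fell from 160 ± 75.3 to 21.5 ± 6.08 CPM (log2 fold change -3.09, SE 0.37, adjusted p = 0.00373 by edgeR). Of these, Slc39a4 was also called in blood labelled αD KO, from 41.1 ± 10.2 to 10.6 ± 2.89 CPM (log2 fold change -2.17, SE 0.31, adjusted p = 0.00753 by edgeR). The share called was thus 3 of 18 tested in WT and 1 of 19 in the libraries labelled αD KO, beside 13.5% and 8.75% over all genes. These calls depended on single libraries. With each of the 6 libraries left out in turn, Slc39a3 and Ndrg1 were called in 2 of 6 fits, and Slc39a4 in 1 of 6 in WT and 3 of 6 in the libraries labelled αD KO. In WT all 3 calls were lost without library 1a or 2 of either time, and Slc39a4 also without 12h library 1b. In the other genotype Slc39a4 was lost without 0h library 1a, 12h library 1a or 12h library 2. The direction held in every one of these fits, and with the files of sample 1 summed all 4 calls were kept.

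Metallothioneins also bind copper, and 10 genes of copper transport and delivery were counted beside them. Slc31a2, a copper transporter of intracellular membranes, was the only one called in any comparison. In WT lung it rose from 26.2 ± 10.4 to 149 ± 66.4 CPM (edgeR log2 fold change 2.46, SE 0.42, adjusted p = 0.0157), in WT blood from 28.2 ± 15.2 to 265 ± 64.9 CPM (3.06, SE 0.44, adjusted p = 0.00641) and in blood labelled αD KO from 48.2 ± 24.6 to 193 ± 30.6 CPM (1.85, SE 0.37, adjusted p = 0.0249; SD, n = 3 libraries each). That is 1 of 8 genes tested in each of these comparisons, beside 9.02%, 13.5% and 8.75% over all genes. With each library left out in turn the calls were kept in 2 of 6 fits in WT lung, 2 of 6 in WT blood and 1 of 6 in blood labelled αD KO, and Slc31a2 stayed higher at 12h in all of them. Both WT calls were lost without library 1a or 2 of either time, and the call in blood labelled αD KO was kept only without 12h library 1b.

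Targets of the other known inducers of metallothionein were counted in the same way. Of 7 glucocorticoid targets, 3 were called as higher in WT lung at 12h: Klf9 (log2 fold change 4.94), Ddit4 (4.31) and Fkbp5 (2.32). The remaining 4, among them Tsc22d3 and Sgk1, were not called, and the median over the 7 was 2.32 against 0.03 over all genes, where 5.24% were called as higher. Of 6 STAT3 targets, 3 were called as higher: Lcn2 (5.66), Bcl3 (2.33) and Il4ra (2.13), with a median of 1.82 over the 6. With single libraries left out, the calls of Klf9, Ddit4, Lcn2 and Bcl3 were kept in 2 of 6 fits and those of Fkbp5 and Il4ra in 1 of 6. All 6 were lost without library 1a or 2 of either time, and Fkbp5 and Il4ra also without 0h library 1b. In blood, the median was -0.60 for glucocorticoid and 0.14 for STAT3 targets in WT, and 1.40 and 0.70 in the libraries labelled αD KO. Glucocorticoid targets split, with Klf9 and Fkbp5 higher and Zbtb16 lower in WT and Klf9 higher in the libraries labelled αD KO. Lcn2 was higher in both blood comparisons, Il4ra was higher in blood labelled αD KO, and Junb was lower in WT blood. With single libraries left out, the WT blood calls were each kept in 2 of 6 fits. In blood labelled αD KO the calls of Klf9 and Lcn2 were kept in 5 of 6, all but the fit without 0h library 1a, and that of Il4ra in 2 of 6, those without a 1b library. None of the 13 genes was called in the lung labelled αD KO, in a genotype comparison or in an interaction.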

How the data were processed

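RNA from sorted neutrophils was sequenced by the authors from full-length amplified cDNA with Nextera libraries. Reads were trimmed with Trimmomatic 0.36 and mapped with STAR 2.5.2b (submitters' notes), and unique exon reads were counted. The authors deposited raw read counts for 49315 genes in each of 24 files, with no normalization or filter. The build is GRCm38, whose annotation gave the same positions for 44823 genes. Symbols matched 48970 IDs. Median depth was 18741144 counts. Libraries 1b detected 29162 to 38844 genes and the other 16 libraries 17132 to 32666. Files 1a and 1b differed beyond sampling noise (chi-square per degree of freedom 63.5 to 328, genes with at least 10 counts), so each was a library, and their sum was an alternative.

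The tests used edgeR 4.0.16 (TMM, filterByExpr, two-sided quasi-likelihood F test, Benjamini-Hochberg over all genes tested) in R 4.3.3, with DESeq2 1.42.0 as an alternative. Other tools were Python 3.11.15, pandas 2.3.3, numpy 2.4.6, scipy 1.17.1 and matplotlib 3.10.9. CPM used TMM factors over 27145 genes in all 24 libraries, and r used log2 CPM with a prior count of 1. Scripts were tested on simulated counts. With 3 against 3 libraries an exact permutation test cannot go below 0.1, so none was run. Members, gene lists and their rules were chosen with earlier results of these data known. The text names the members, list genes called in a comparison, the 3 highest ZIP and ZnT genes per kb and the 5 genes most like each member. Same-numbered libraries deviated together (r over 0.1 for every number) in lung labelled αD KO, in the genotype comparison of blood at 0h and in WT blood. In each of the other 5 comparisons number 1a fell short of that. The 1b libraries had r of 0.264 to 0.749 over all the comparisons. Mtf1 and Slc30a1 overlap 1110065P20Rik and 1700034H15Rik on the opposite strand. The alternatives were RLE factors, no filter, DESeq2, all 8 groups in the fit, summed files, a replicate block, each library left out, and no 1b libraries; leaving out 3 lung libraries was chosen after seeing the data.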

Additional observations from a re-analysis of the deposited data

How the results depend on the processing

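The sign of Mt1 and Mt2 held under all alternatives in WT lung, in both genotype comparisons at 12h and in the lung interaction, which ran from -12.10 to -5.56 for Mt1 and from -13.78 to -5.07 for Mt2 with single libraries left out. In the blood interaction Mt1 ran from 2.41 to 4.65, and Mt2 had no stable value, from 0.00053 without WT blood 0h library 2 to 6.26. RLE factors changed no call of a member. Without the 3 lung libraries that went against their time labels, Mt1 turned from -3.70 to 2.54 in lung labelled αD KO and from 5.10 to -0.024 in the lung genotype comparison at 0h, and Slc39a14 turned from 0.07 to -0.27 in lung labelled αD KO. Mtf1 in WT lung turned from 0.03 to -0.20 without the filter, -0.28 with summed files and -0.36 without the 1b libraries. With no filter Mt1 was called in lung labelled αD KO and between genotypes in lung at 12h (values given with the results). With single libraries left out, Mtf1 in WT lung ran from -0.21 to 0.23, and in lung labelled αD KO Mt1 ran from -5.30 to 1.40, Slc39a14 from -0.26 to 0.39 and Slc30a1 from -0.064 to 0.55. Mt1 between genotypes at 0h ran from -1.77 to 0.33 in blood and from -0.024 to 5.67 in lung. The causes were not tested.

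The number of genes called in WT lung (1340) was 447 with all 8 groups, 2810 with DESeq2, 2337 with summed files, 893 with the replicate block and 5299 without the 1b libraries. In lung labelled αD KO (0) it was 23 without the filter. It was 326 without the 3 libraries, which sets 2 files of the same sample against 1 library kept for its position on CLP genes and is no check. Between genotypes it was 6 with DESeq2 and 0 with summed files, with the replicate block and without 1b in blood at 0h (2), 1 with all 8 groups, 6 with DESeq2 and 2 without the filter in lung at 0h (0), 2, 16, 80 and 28 with all 8 groups, DESeq2, no filter and no 1b libraries in blood at 12h (0), and 2, 192, 207 and 4686 in the same order in lung at 12h (0). WT blood (1975) gave 1118 with all 8 groups, 3135 with DESeq2, 944 without the filter and 3201 without 1b. Blood labelled αD KO (1238) gave 64 with all 8 groups, 2496 with DESeq2 and 635 with summed files. The lung interaction gave 350 with DESeq2 and 2480 without 1b, and the blood interaction 1 with DESeq2. The 4686 and 2480 genes without the 1b libraries rest on lung libraries labelled αD KO that mostly went against their time labels. With each library left out in turn the counts ran from 0 to 3941 in WT lung, 0 to 1 and 0 to 209 between genotypes in blood at 0h and lung at 12h, 2 to 2804 in WT blood and 74 to 1414 in blood labelled αD KO, and were 0 elsewhere. The replicate block, which the labels do not state as a pairing, changed no call of a member outside WT lung. Low counts limit Slc39a14 (10 to 173 counts in a library), Slc30a1 (5 to 88) and Mt2 in blood and WT lung at 0h (3 to 15 counts in a group) most.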
